A study of Mus musculus with 13 samples.

Results

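The genes of laminin chains, nidogens and perlecan, 10 in all, were followed across 13 single-cell libraries of mouse mammary fibroblasts. They were Lama2, Lama4, Lama5, Lamb1, Lamb2, Lamc1, Lamc3, Nid1, Nid2 and Hspg2, taken by symbol from the 32285 genes that each library lists, and all 10 were found. Values were read over 100523 fibroblast barcodes of 120355 in all, with 1401 pericyte barcodes, of which 1348 came from wild-type libraries, as the contrast. A fibroblast barcode had at least 0.5% of its UMIs from Dcn, Lum and Col1a2 and no UMI of Epcam, Pecam1, Rgs5, Sox10, Ptprc or Myog. A pericyte barcode had at least 2 UMIs of Rgs5. A UMI (unique molecular identifier) marks 1 captured RNA molecule. Levels are given as CPM, the UMIs of a gene per 1000000 UMIs summed over the cells of a library.

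The wild-type libraries came from C57BL/6 females, from sorted stromal cells negative for lineage markers and CD24, with 2 females per condition as the labels give it. The methods differ for placebo and MPA+E, where a pair of females is given for each library. The stages had 1 library each: puberty at 4 weeks, adult virgin at 9 weeks, pregnancy at 14.5 days, lactation at 10 days and involution at 4 days. The hormone libraries, 2 of placebo and 2 of MPA+E (medroxyprogesterone acetate, a synthetic progestin, with estradiol), came from wild-type C57BL/6 females listed at 9 weeks. The hyperplasia and tumour libraries, 2 of each, came from raGFP-Wnt1 females (Pdgfra-GFP KI/+ MMTV-Wnt1 T/+, mixed C57BL/6 and FVB background), listed at 45 weeks for mouse 1 and 17 weeks for mouse 2. Each mouse gave 1 hyperplasia and 1 tumour library, numbered alike. In these mice the MMTV promoter drives Wnt1 chiefly in the mammary epithelium, and cells positive for GFP from the Pdgfra locus were sorted.

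A basement membrane is the thin sheet of matrix that underlies epithelia and surrounds vessels, muscle and fat cells. Laminins are trimers of an alpha, a beta and a gamma chain that polymerise at the cell surface through receptors such as integrins and dystroglycan. Nidogens link the laminin network to the collagen IV network, and perlecan is a large heparan sulfate proteoglycan that binds to both. In the mammary gland, epithelial cells rest on a laminin-rich membrane to which epithelial and stromal cells both contribute.

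Each library held 4236 to 11951 fibroblasts with 47521842 to 102522735 UMIs, and the median fibroblast had 3990 to 20256 UMIs. Wild-type libraries held 35 to 263 pericytes, and the GFP-sorted libraries 3 to 33, which were not used. Pairs of libraries shared 3 to 34 cell barcodes. The fibroblast markers Dcn, Lum, Pdgfra, Col1a2, Col1a1 and Pdpn were all detected in the fibroblast sums of every library. Nothing in the labels gives a culture, library preparation day or sequencing run, so p-values measure the spread between these libraries. Intervals of counts and shares are exact 95% intervals and cover counting error only.

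The genes are scattered over the genome (coordinates in GRCm38). Among the alpha chain genes, Lama2 spans chr10:26980036-27619758 on the minus strand, Lama4 chr10:38965515-39110188 on the plus strand and Lama5 chr2:180176373-180225859 on the minus strand. Lamb1 spans chr12:31265234-31329644 and Lamb2 chr9:108479736-108490530, both on the plus strand. Lamc1 spans chr1:153218922-153332786 on the minus strand and Lamc3 chr2:31887291-31946539 on the plus strand. Nid1 spans chr13:13437551-13512269, Nid2 chr14:19751265-19811787 and Hspg2 chr4:137468769-137570630, all on the plus strand. No exon of these genes overlaps an exon of another gene on the same strand.

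Promoter sequences of 300 bases, 250 before to 50 after the start, were matched for 6 of the 10 genes from RefSeq on GRCm38.p6. Those of 4 are shown. Lamb1 and Nid1 were both at their highest in lactation and both low in the adipogenesis-regulatory-like class, Lama5 was higher in pericytes, and Lamb2 was the 1 gene whose level did not pass the test between pericytes and fibroblasts. Capitals mark matches on either strand to the GC box (GGGCGG), the CCAAT box (CCAAT) or the letters of a STAT site (TTCNNNGAA). They lie at chr12:31265043-31265342 for Lamb1, chr13:13437352-13437651 for Nid1, chr2:180225810-180226109 for Lama5 on the minus strand, and chr9:108479612-108479911 for Lamb2.
Lamb1: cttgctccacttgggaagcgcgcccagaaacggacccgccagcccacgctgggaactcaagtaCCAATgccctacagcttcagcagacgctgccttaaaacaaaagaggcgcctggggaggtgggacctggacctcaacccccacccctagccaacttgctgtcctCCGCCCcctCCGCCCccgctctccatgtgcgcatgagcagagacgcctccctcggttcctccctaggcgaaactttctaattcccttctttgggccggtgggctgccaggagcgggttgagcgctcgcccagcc
Nid1: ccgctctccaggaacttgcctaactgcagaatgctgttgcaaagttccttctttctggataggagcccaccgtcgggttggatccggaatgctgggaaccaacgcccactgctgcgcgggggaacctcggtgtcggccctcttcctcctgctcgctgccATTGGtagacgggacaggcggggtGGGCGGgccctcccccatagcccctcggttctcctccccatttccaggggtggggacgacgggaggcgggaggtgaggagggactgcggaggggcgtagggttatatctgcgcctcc
Lama5: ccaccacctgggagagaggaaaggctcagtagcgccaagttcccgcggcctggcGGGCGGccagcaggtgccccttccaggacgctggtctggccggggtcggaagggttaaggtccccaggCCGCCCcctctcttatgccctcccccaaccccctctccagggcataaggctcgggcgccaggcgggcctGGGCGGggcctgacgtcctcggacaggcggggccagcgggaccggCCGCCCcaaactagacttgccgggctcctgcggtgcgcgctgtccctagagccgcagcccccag
Lamb2: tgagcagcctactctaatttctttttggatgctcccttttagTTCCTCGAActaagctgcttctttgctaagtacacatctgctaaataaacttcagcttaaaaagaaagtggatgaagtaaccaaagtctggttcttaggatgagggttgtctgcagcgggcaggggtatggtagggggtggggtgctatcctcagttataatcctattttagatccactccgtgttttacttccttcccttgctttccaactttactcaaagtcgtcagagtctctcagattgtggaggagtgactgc
Lamb1 and Nid1 each held 1 CCAAT box, beside 2 and 1 GC boxes. Lama5 held 4 GC boxes and no CCAAT box, and Lamb2 held 1 match to the STAT letters and neither box. Over 32851 promoters of this length, 35.7% held a GC box, 37.4% a CCAAT box and 8.3% the STAT letters. GC content was 72.7% in Lama5, 63.7% in Lamb1 and 64.7% in Nid1, against 44% in Lamb2 and a median of 52.7% over all promoters. None of the 6 promoters held TATAAA or the AP-1 letters TGAGTCA, which occurred in 13.6% and 5.2% of all promoters. The letters TGTTCT of a steroid receptor site were found once, in Lama2, and in 19.0% of all promoters. A match to these letters is a description of the sequence.

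All 10 genes had UMIs in fibroblasts of every library, and Lama5 very few. Nid1 was detected in the most cells, with a UMI in 88.4% to 97.9% of fibroblasts, followed by Lama2 (64.3% to 93.1%), Lamc1 (68.7% to 94.0%) and Hspg2 (75.0% to 93.5%). Lamb1, Lamb2 and Lama4 had medians over libraries of 75.0%, 68.5% and 64.2%. Nid2 and Lamc3 were found in fewer cells, with medians of 21.3% and 13.3%. Lamc3 was lowest in puberty, with a UMI in 1.45% of fibroblasts (1.18% to 1.75%, median depth 6663 UMIs) beside 1 of 84 pericytes (1.19%, 0.0301% to 6.46%, median depth 3020 UMIs). With 1 pericyte and unlike depths, its share in fibroblasts there cannot be placed above or below that in pericytes. Lama5 had a UMI in 0.0165% to 0.793% of fibroblasts and 1 to 88 UMIs per library. These shares depend on depth. With every cell thinned to 2000 UMIs and shallower cells left out, the medians were 81.2% for Nid1, 47.1% for Lama2, 48.8% for Lamc1, 45.3% for Hspg2, 5.49% for Nid2, 4.29% for Lamc3 and 0.0416% for Lama5. The counting was by the RNA's 3′ end, so levels of different genes are not ranked here.

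**Figure D1:**
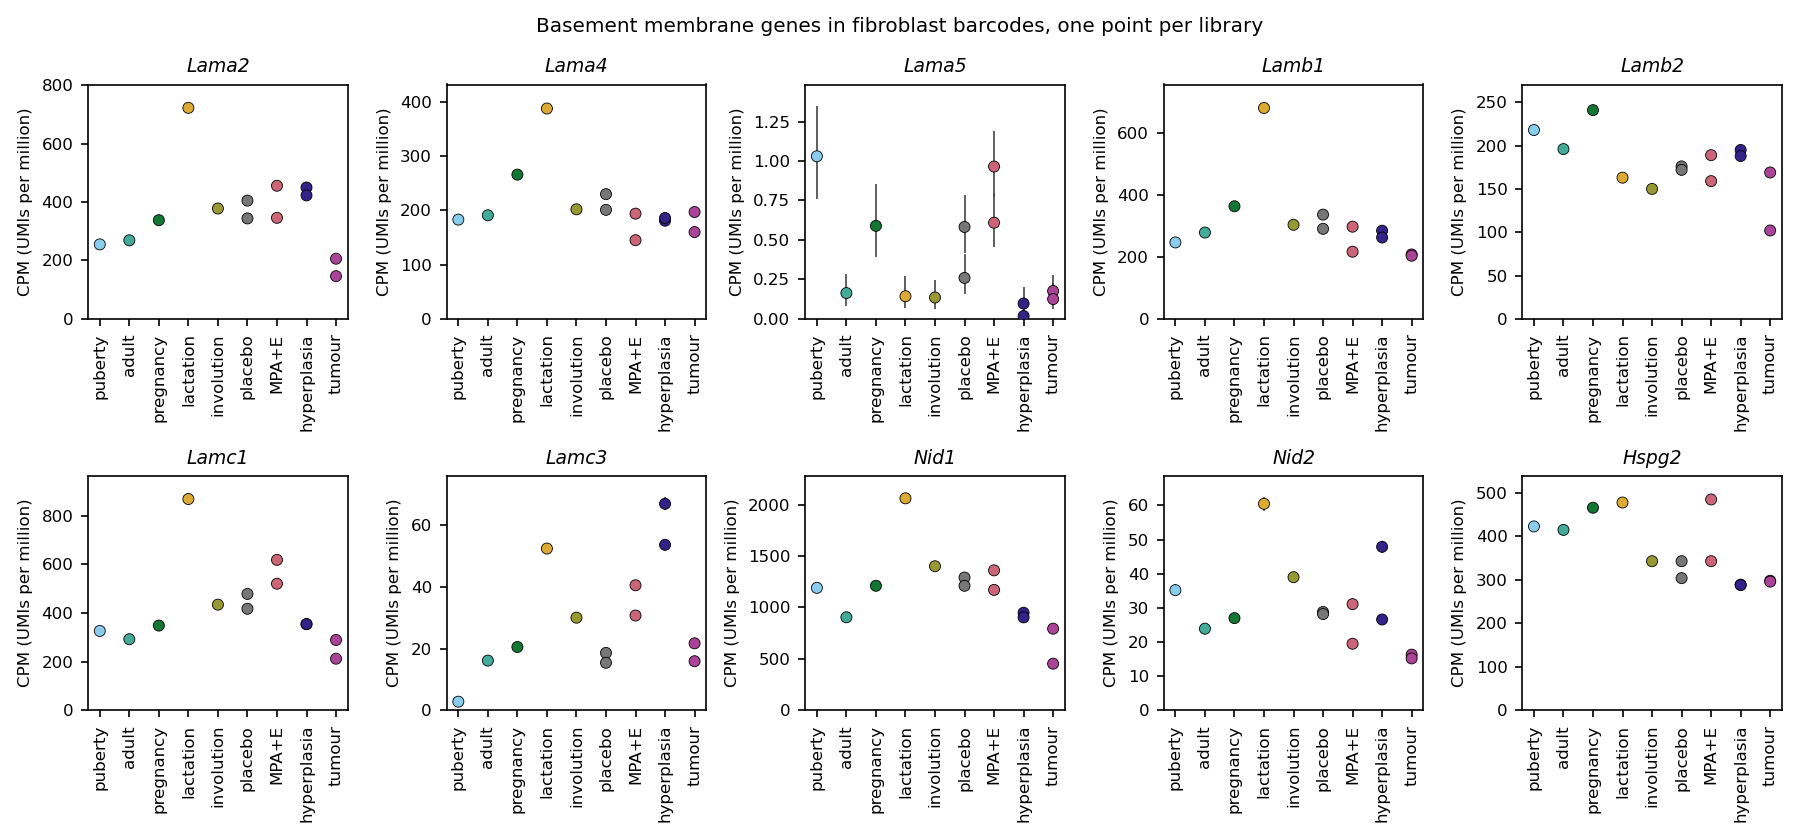
Level of each of the 10 genes in the fibroblasts of all 13 libraries, as CPM on axes that start at 0, with 1 panel per gene, 1 point per library and bars for exact 95% Poisson intervals. The lactation library has the highest stage value in 8 of the 10 genes, and Lama5 lies at or below 1.03 CPM throughout.

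The stage libraries asked how the genes of the basement membrane vary over the cycle of the gland. Of the 10 genes, 8 had their highest stage level in lactation, as did 3500 (36.6%) of all 9566 genes with a mean of at least 5 CPM over the stages. Of the 10, 8 differed by at least 2 times between their highest and lowest stage, Lama5 included. Of the 9566 genes, 1717 (17.9%) differed by as much, as did 7 of the 9 genes above that level. With 1 library per stage there is no test between stages, and the intervals below cover counting error only.

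Lama2, the alpha 2 chain of muscle and stromal laminins, was at 255 CPM in puberty and 269 in the adult, reached 338 in pregnancy and 723 in lactation, and stood at 378 in involution. Its lactation level was 2.84 times that of puberty (2.78 to 2.90). Lama4, the alpha 4 chain typical of vessel and fat cell membranes, was at 183, 191, 266, 388 and 202 CPM in the same order, a ratio of 2.12 (2.07 to 2.17). Both alpha chains thus stood highest in lactation, with pregnancy or involution next. Lama5, the alpha 5 chain of epithelial and endothelial membranes, went the other way at very low counts, with 1.03 CPM in puberty and 0.135 in involution. These rest on 50 and 10 UMIs, and their ratio of 7.62 (3.82 to 16.9) was 2.29 once cells called doublets were left out, on 11 and 7 UMIs. That interval, 0.811 to 6.97, includes 1. Of the 50 UMIs in puberty, 35 lay in 44 cells of 2 unnamed clusters with Myh11 and Acta2 among their 10 leading genes, and the other fibroblasts held Lama5 at 0.310 CPM. The cluster led by Cnn1 also had the keratin genes Krt14 and Krt17 among its leading genes, and the other had neither. The UMIs were not split between the 2 clusters. No Lama5 UMI lay in these clusters in involution.

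Lamb1, the beta 1 chain of most stromal laminins, was at 247, 279, 364, 682 and 304 CPM from puberty to involution. Lamb2, the beta 2 chain known from synaptic and vascular laminins, was at 218, 196, 241, 163 and 150 CPM. The beta chains therefore did not share a pattern, since lactation was the highest stage for Lamb1 and the second lowest for Lamb2. Lamc1, the gamma 1 chain found in nearly all laminins, was at 326, 292, 348, 868 and 434 CPM, a ratio of 2.98 between lactation and the adult (2.93 to 3.02). Lamc3, the gamma 3 chain, varied most, at 2.79, 16.1, 20.5, 52.4 and 30 CPM. Its lactation level was 18.8 times that of puberty (15.8 to 22.4), where it had 136 UMIs. The ECM (extracellular matrix) remodelling-like class of fibroblasts, in which Lamc3 was highest, made up 1.63% of cells in puberty and 21.7% in lactation, and more such cells and more RNA per cell cannot be told apart in these sums.

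Nid1, the nidogen that binds the gamma 1 chain, was at 1190, 904, 1210, 2060 and 1400 CPM. Nid2, its homologue, was at 35.2, 23.9, 27.0, 60.5 and 39.0 CPM, so both nidogens were lowest in the adult and highest in lactation. Hspg2, which encodes perlecan, varied least, at 423, 415, 466, 478 and 343 CPM, a ratio of 1.39 (1.37 to 1.42). The collagen IV chains Col4a1 and Col4a2, to which nidogens bind, were also highest in lactation, at 2320 and 943 CPM against 749 and 320 in puberty.

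The lactation library stood apart in other ways. Its fibroblasts held Malat1, a nuclear RNA, at 32000 CPM against 20600 to 24300 in the other stages, Neat1, another nuclear RNA, at 1210 CPM against 1570 to 2110, and milk protein genes at 867 CPM against 0.0813 to 39.0. An unnamed cluster led by milk protein genes made up 11.8% of its fibroblasts and 3.75% to 6.22% elsewhere. Without the milk gene cluster, an alternative chosen after seeing the data, 8 of 10 genes still differed by at least 2 times, with ratios of 2.77 for Lama2, 2.65 for Lamb1 and 2.22 for Nid1. The 4 endothelial markers, none at 0, summed to 5.32 CPM in lactation against 15.9 to 41.8, nearly all of it Kdr. The 4 epithelial markers were at 33.4 CPM in pregnancy and 0.123 to 1.02 elsewhere. The part of these RNAs in the levels of the 10 genes was not tested.

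Fibroblasts were then divided into classes by clustering from which these 10 genes were left out, with clusters named from marker genes. The classes were progenitor-like, preadipocyte-like, ECM remodelling-like (ECM, extracellular matrix), lobular-like, adipogenesis-regulatory-like, cycling and, in raGFP-Wnt1 mice, myofibroblastic-like. Between 75.5% and 99.7% of fibroblasts of a library fell into a named class. Since classes are clusters of the same cells, their levels are a description and no test was made. Each class was set against the other named fibroblasts of its own library, as log2 of (CPM + 1). In all, 8 pairs of a gene and a class differed by at least 2 times on average with the same direction in every library. Of all 67543 such pairs, 3522 (5.21%) did so.

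Lamc3 marked the ECM remodelling-like class. There it stood at 42.0 to 149 CPM (median 115) with a UMI in 23.3% to 68.7% of cells, and was higher than in the other cells in 13 of 13 libraries, by 3.21 ± 0.61 on the log2 scale (SD, n = 13). In the progenitor-like class it was at most 2.71 CPM with a UMI in at most 1.41% of cells, lower in 13 of 13 libraries (-4.42 ± 0.71). It was lower as well in the lobular-like class (-3.33 ± 0.91, n = 9) and the adipogenesis-regulatory-like class (-3.22 ± 0.76, n = 13). The preadipocyte-like class lay between these, at 0.747 to 55.8 CPM with a median of 23.7.

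The nidogens differed in the progenitor-like class. Nid2 was highest in the lobular-like class, at 55.5 to 119 CPM, higher than elsewhere in 9 of 9 libraries (1.69 ± 0.39, n = 9), and lowest in the progenitor-like class, at 3.87 to 18.1 CPM (-2.03 ± 0.68, n = 13). Nid1 was highest in the progenitor-like class instead, at 1130 to 2380 CPM, higher in 13 of 13 libraries (0.87 ± 0.36, n = 13). It was low in the adipogenesis-regulatory-like class, at 342 to 904 CPM (-1.17 ± 0.44, n = 13).

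Of the abundant laminin chains, Lamb1 was lowest in the adipogenesis-regulatory-like class, at 62.6 to 241 CPM and lower in 13 of 13 libraries (-1.57 ± 0.61, n = 13). Lama2 was higher in the ECM remodelling-like class in 13 of 13 libraries (0.89 ± 0.36), at 284 to 1120 CPM. Lama4 was higher in the progenitor-like class in 12 of 13 libraries (0.57 ± 0.29) and lower in the adipogenesis-regulatory-like class in all 13 (-0.98 ± 0.35). That class held 6 of the 10 genes at a lower level in every library (Lama2, Lama4, Lamb1, Lamc1, Nid1 and Hspg2) besides Lamc3. Of all 9649 genes with a mean of at least 5 CPM over the libraries, 1364 (14.1%) were lower there in every library. Lamb2 was the opposite case, higher there in 13 of 13 libraries (0.52 ± 0.20) and lower in the preadipocyte-like class in 13 of 13 (-0.70 ± 0.40). Hspg2 was highest in the lobular-like class, with a median of 639 CPM and higher values in 8 of 9 libraries (0.75 ± 0.42).

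**Figure D2:**
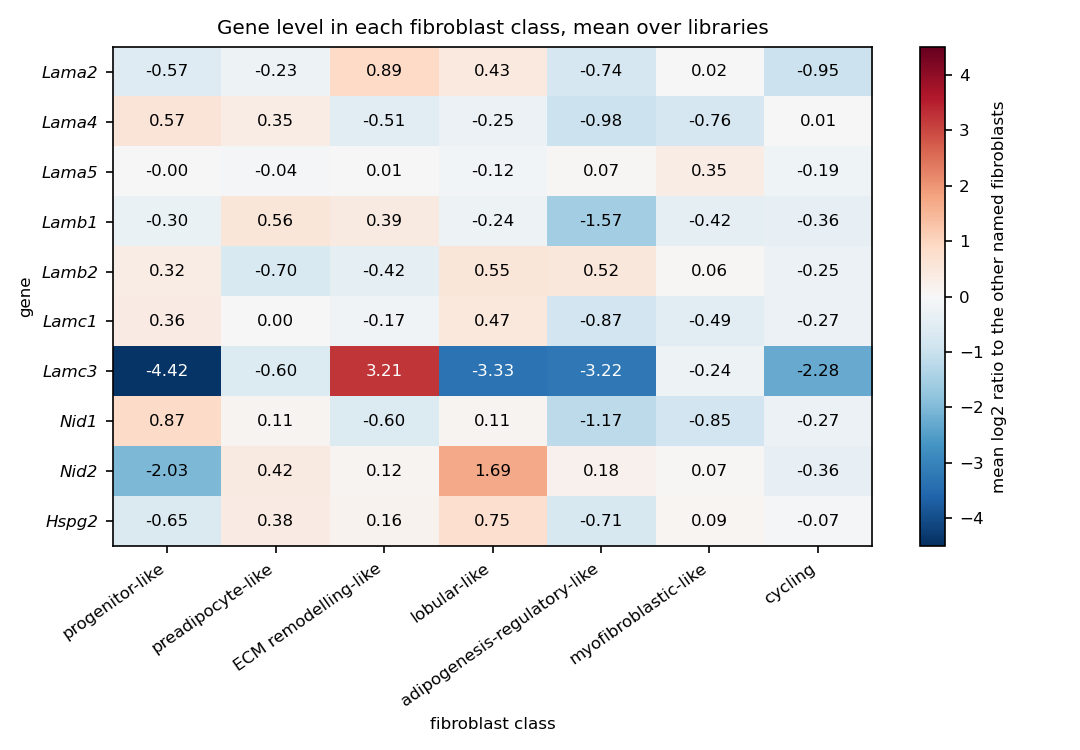
Mean over libraries of the log2 ratio of each gene's CPM in a fibroblast class (columns) to that in the other named fibroblasts of the same library, with 1 CPM added, as a colour and a number in each cell. Lamc3 has the extreme values, 3.21 in the ECM remodelling-like class and -4.42 in the progenitor-like class.

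The hormone libraries asked what MPA+E does to fibroblasts of the virgin gland. Lamc3 rose and the other 9 did not pass the test. Of all 15642 genes tested, 678 (4.33%) passed. Lamc3 was at 18.6 and 15.4 CPM in the placebo libraries and at 40.5 and 30.7 in the MPA+E libraries, a log2 fold change of 1.07 (SE 0.13, adjusted p = 0.0217, edgeR quasi-likelihood test, n = 2 per group). The groups did not overlap, but with 2 libraries a group the share of all genes that lay apart was not counted. The call was lost when placebo 1 (1.14, adjusted p = 0.12 in edgeR) or placebo 2 (1.01, adjusted p = 0.156) was left out.

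Lamc1 was at 478 and 417 CPM with placebo and 618 and 520 with MPA+E (log2 0.36, adjusted p = 0.19 in edgeR). Hspg2 was at 343 and 304 against 485 and 343 CPM (0.36, adjusted p = 0.325). Lama4 was at 230 and 201 against 194 and 145 CPM (-0.34, adjusted p = 0.282), and Lamb1 at 337 and 291 against 298 and 217 CPM (-0.28, adjusted p = 0.419). The groups met or overlapped for Hspg2 and Lamb1 and lay apart for Lamc1 and Lama4, an order not counted over all genes. For Lama2, Lamb2, Nid1 and Nid2 the fold change was between -0.17 and 0.11. Lama5 was at 0.259 and 0.582 against 0.609 and 0.965 CPM, from 18 to 88 UMIs (0.90, adjusted p = 0.447).

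The treatment itself was visible in Greb1 and Pgr, genes known to respond to estrogen, at 6.03 and 6.82 against 105 and 90.6 CPM for Greb1 and 9.59 and 13.7 against 41.4 and 63.6 CPM for Pgr. Of 39 other basement membrane genes and receptors, 36 were tested, 3 rose and 3 fell, with a median log2 fold change of 0.042 beside 0.0052 over all genes. Those that rose were Agrn (1.08), the heparan sulfate proteoglycan agrin, Frem1 (0.94) and Sdc1 (0.59), and those that fell were the integrin gene Itga2 (-1.36), Efemp1 (-0.73) and Col4a5 (-0.70), by edgeR. The 4 endothelial markers summed to 14.6 CPM in both placebo libraries and to 43.9 and 45.8 CPM with MPA+E, nearly all of it Kdr (14.2 and 14.1 against 43.2 and 45.2). Cdh5, which defines endothelial cells, stayed between 0.176 and 0.374 CPM, and no marker was at 0. The 6 pericyte markers other than Rgs5 summed to 52.2 and 52.6 CPM with placebo and 24.8 and 22.4 with MPA+E, and none was at 0. Within that list Abcc9 (31.5 and 32.8 against 12.6 and 9.69), Kcnj8 and Cspg4 were lower in both MPA+E libraries. Mcam (1.43 and 1.39 against 1.01 and 1.82) and Notch3 (4.03 and 3.98 against 2.44 and 4.62) overlapped. Higd1b was higher in both MPA+E libraries (0.0288 and 0.208 against 0.253 and 0.263). The part of either list in the Lamc3 result was not tested.

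The ECM remodelling-like class, in which Lamc3 was highest, made up 23.7% and 20.1% of placebo fibroblasts and 23.0% and 29.4% with MPA+E. The groups overlapped in that share. They lay apart in the share of the progenitor-like class, which was 29.9% and 32.4% with placebo and 14.9% and 19.2% with MPA+E. An unnamed cluster of 3578 cells, led by Ctla2a and Tgm2 and scoring highest for the progenitor markers, was 7.62% and 7.97% with placebo and 17.5% and 21.3% with MPA+E, so the share of the progenitor-like class depends on where that cluster is counted. Lamc3 was at 0.757 and 0.403 against 1.41 and 1.30 CPM in it. The part of these shares in the Lamc3 result over all fibroblasts was not tested. Within classes, in fits chosen after seeing the data, Lamc3 did not pass. In the ECM remodelling-like class it was at 68.5 and 68.7 CPM with placebo and 148 and 95.7 with MPA+E (0.75, adjusted p = 0.158, edgeR, 1.16% of genes called). In the preadipocyte-like class it was at 24.8 and 22.0 against 52.3 and 31.3 CPM (0.82, adjusted p = 0.122, 4.34% called). In both classes the MPA+E libraries lay above the placebo libraries, an order not counted over all genes of a class. The 1 gene called within a class was Hspg2 in the lobular-like class, at 548 and 499 CPM with placebo and 971 and 767 with MPA+E (0.78, SE 0.15, adjusted p = 0.046, edgeR, 2.97% called). No other of the 10 genes was called there, and none in the progenitor-like class (2.33% called) or the adipogenesis-regulatory-like class (3.65% called). The difference of the effect between classes was not tested.

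The raGFP-Wnt1 libraries set tumours against the hyperplastic glands of the same mice. Lama2 and Nid2 fell in tumours, and none of the 10 genes rose. Of all 16302 genes tested in this fit, 4777 (29.3%) passed, so 2 of 10 is no more than the share over all genes. Lama2 was at 450 and 423 CPM in hyperplasia and 206 and 146 in tumours, a log2 fold change of -1.33 (SE 0.21, adjusted p = 0.011, limma-voom, n = 2 per group). Nid2 was at 47.9 and 26.6 against 16.3 and 15.2 CPM (-1.17, SE 0.33, adjusted p = 0.0403). Neither pair of groups overlapped. The fit also held puberty and adult, joined as 1 normal group, so their difference entered the spread behind these p-values. The mouse was not a term in it.

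Lamc3 was at 66.9 and 53.6 CPM in hyperplasia and 21.7 and 15.9 in tumours (-1.68, SE 0.58, adjusted p = 0.0687, limma-voom). Fitted without puberty and adult and with the mouse as a replicate block, it passed as well (-1.69, adjusted p = 0.013), which made 3 of 10 genes, where 4837 of 16001 genes (30.2%) were called. It also passed in the 4 libraries alone with no block (-1.69, adjusted p = 0.0178, limma-voom), a fit chosen after seeing the data in which Nid2 did not (-1.18, adjusted p = 0.0539) and 3187 genes (19.9%) were called. Lamc1 was at 354 in both hyperplasia libraries against 289 and 212 CPM (-0.51, adjusted p = 0.102), Lamb1 at 285 and 263 against 208 and 204 (-0.41, adjusted p = 0.0785), and Nid1 at 948 and 903 against 793 and 453 (-0.63, adjusted p = 0.161). Both tumours lay below both hyperplastic glands for these 3 genes and for Lamb2, at 195 and 188 against 169 and 102 CPM. The same order was found for 5998 of 16302 genes tested (36.8%), with 2 libraries a group. Lama4, at 181 and 186 against 197 and 160 CPM, and Hspg2, at 289 and 288 against 298 and 296, differed by -0.045 and 0.044. Lama5 had 1 and 7 UMIs in hyperplasia and 18 and 11 in tumours.

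Some of these calls were lost when 1 library was left out. Lama2 was not called without hyperplasia 1 (-1.28, adjusted p = 0.0852, limma-voom) or hyperplasia 2 (-1.38, adjusted p = 0.0642). Nid2 was not called without puberty (adjusted p = 0.0554), adult (0.0556), hyperplasia 1 (-0.74, 0.193), hyperplasia 2 (-1.61, 0.0593) or tumour 2 (-1.09, 0.0759). Without tumour 1, which leaves 1 tumour library assumed to vary like the other groups, 6 of 10 genes were called, the others being Lamb2, Lamc1, Lamc3 and Nid1, where 7120 of 17002 genes (41.9%) were called.

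Of the 39 other basement membrane genes, 38 were tested, 7 rose and 6 fell, with a median of -0.063 beside -0.013 over all genes. The alpha 1 chain gene Lama1, a chain of early embryonic and epithelial laminins, had no UMI in hyperplasia 1, which allows up to 0.0531 CPM, 5 UMIs in hyperplasia 2, and 599 and 405 UMIs in the tumours. That is 0.069 CPM in hyperplasia 2 against 5.84 and 4.61 CPM (adjusted p = 0.00644, limma-voom). The integrin genes Itga3 (3.75) and Itga1 (2.36) rose too. The collagen IV chain genes Col4a3 (-4.57) and Col4a4 (-3.10) and the integrin gene Itga2 (-2.30) fell.

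The makeup of the fibroblasts differed between the groups. The ECM remodelling-like class was 46.2% and 41.6% of hyperplasia fibroblasts and 12% and 9.92% of tumour fibroblasts, while the myofibroblastic-like class was 4.96% and 4.76% against 38.9% and 65.3%. In library sums, fewer cells of a class and less RNA per cell cannot be told apart. The levels within each class, in fits chosen after seeing the data, are therefore given for the 3 genes. The 6 pericyte markers other than Rgs5 summed to 51.8 and 36.1 CPM in hyperplasia and 65.1 and 37.9 in tumours. Within that list Mcam was at 0.726 and 0.511 against 3.06 and 8.28 CPM, Cspg4 at 7.68 and 6.61 against 20.1 and 14.2 and Notch3 at 5.17 and 5.32 against 6.42 and 9.76. The other markers of the list overlapped. Abcc9 was at 30.9 and 16.4 against 21.9 and 3.24, Kcnj8 at 7.22 and 7.06 against 13.6 and 2.18 and Higd1b at 0.0885 and 0.262 against 0.0195 and 0.228. The 4 endothelial markers summed to 5.75 and 12.8 against 2.84 and 3.60, most of it Kdr. Kdr and Vwf were lower in both tumours, while Cdh5 and Emcn overlapped. No marker of either list was at 0. The part of these markers in the results was not tested. In every class fitted, both tumours lay below both hyperplastic glands for Lama2. How many of all genes had this order within a class was not counted. The cycling class, with 4 cells in hyperplasia 1, was not compared. It fell in the myofibroblastic-like class, from 466 and 472 to 208 and 142 CPM (-1.49, adjusted p = 0.00686, limma-voom, 23.3% of genes called). It fell in the preadipocyte-like class, from 388 and 407 to 173 and 107 CPM (-1.55, adjusted p = 0.039, 5.46% called), and in the adipogenesis-regulatory-like class, from 231 and 251 to 146 and 140 CPM (-0.83, adjusted p = 0.0477, 4.9% called). It was at 626 and 620 against 457 and 388 CPM in the ECM remodelling-like class (-0.71, adjusted p = 0.0726, 6.58% called) and at 284 and 256 against 172 and 93.7 CPM in the progenitor-like class (-1.04, adjusted p = 0.102, 3.31% called).

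Nid2 fell in the myofibroblastic-like class, from 56.3 and 43.0 to 13.4 and 14.8 CPM (-1.84, SE 0.20, adjusted p = 0.00356, limma-voom). In the preadipocyte-like class it was at 92.4 and 51.3 against 28 and 22.4 CPM (-1.40, adjusted p = 0.0738), and in the adipogenesis-regulatory-like class at 45.9 and 29.7 against 61.0 and 36.4 CPM (0.31, adjusted p = 0.639), so the groups lay apart in the first and overlapped in the second. In the ECM remodelling-like class Nid2 was at 46.2 and 30.1 against 24.1 and 7.67 CPM (-1.57, adjusted p = 0.108), and in the progenitor-like class at 8.12 and 3.87 against 7.55 and 9.26 CPM (0.60, adjusted p = 0.426), where the groups overlapped. Lamc3 fell in the preadipocyte-like class, from 11.8 and 15.0 to 0.747 and 1.26 CPM (-3.85, SE 0.41, adjusted p = 0.0205). The tumour values there rest on few UMIs, from 1476 and 248 cells. In its leading class, the ECM remodelling-like, Lamc3 was at 149 and 133 CPM in hyperplasia and 83.6 and 119 in tumours (-0.64, adjusted p = 0.0951). It was at 51.4 and 41.3 against 31.3 and 9.86 CPM in the myofibroblastic-like class (-1.43, adjusted p = 0.127). In the progenitor-like class it had 14 and 17 UMIs in hyperplasia and 2 and 0 in tumours (adjusted p = 0.115). In the adipogenesis-regulatory-like class, with 21 and 9 against 2 and 2 UMIs, it was too low to be tested. Of the 10 genes, those called within a class were Lama2, Nid2 and Lamc3, in the classes named. The study reported that tumours lacked Cd36+ committed preadipocytes and Bmp5+ lobular-like fibroblasts. It saw fibroblasts with alpha-SMA, the product of Acta2, in tumours only. Classes given the same name here need therefore not hold the same cells in both groups. The myofibroblastic-like class joined 2 clusters, of which the one led by Fmod, Col11a1 and Comp held most hyperplasia cells, so its values compare unlike mixtures of these clusters. At a finer clustering, 58.0% and 62.9% of these cells in hyperplasia but 5.22% and 6.48% in tumours fell into an unnamed cluster, while 4.67% and 2.89% against 15.3% and 14.5% took the lobular-like name. In the myofibroblastic-like class of that clustering, Nid2 was at 23.0 and 25 CPM in hyperplasia and 14.8 and 15.8 in tumours, a smaller difference. In the lobular-like class of that clustering it was at 180 and 140 CPM in hyperplasia and 12.5 and 8.09 in tumours, a larger one, and neither was tested. This lobular-like class held unlike cells in the groups. Of its 153 and 73 cells in hyperplasia, 139 and 62 came from the preadipocyte-like class. Of its 560 and 402 cells in tumours, 530 and 401 came from the myofibroblastic-like class. Of the preadipocyte-like cells, 14.4% and 15.1% in hyperplasia and 36.2% and 33.9% in tumours took the progenitor-like name at the finer clustering. The lobular-like name was taken by 13.1% and 4.4% of them in hyperplasia and 2.03% and 0.403% in tumours. The values of the preadipocyte-like class, those of Nid2 included, thus also compare unlike mixtures. In the preadipocyte-like class of that clustering, Lamc3 was at 14.3 and 17.8 against 1.13 and 2.41 CPM, from 134 and 226 against 11 and 6 UMIs. In the unnamed cluster that took most myofibroblastic-like cells of hyperplasia, Lamc3 was at 101 and 86.4 against 38.7 and 29.8 CPM. Neither was tested.

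**Figure D3:**
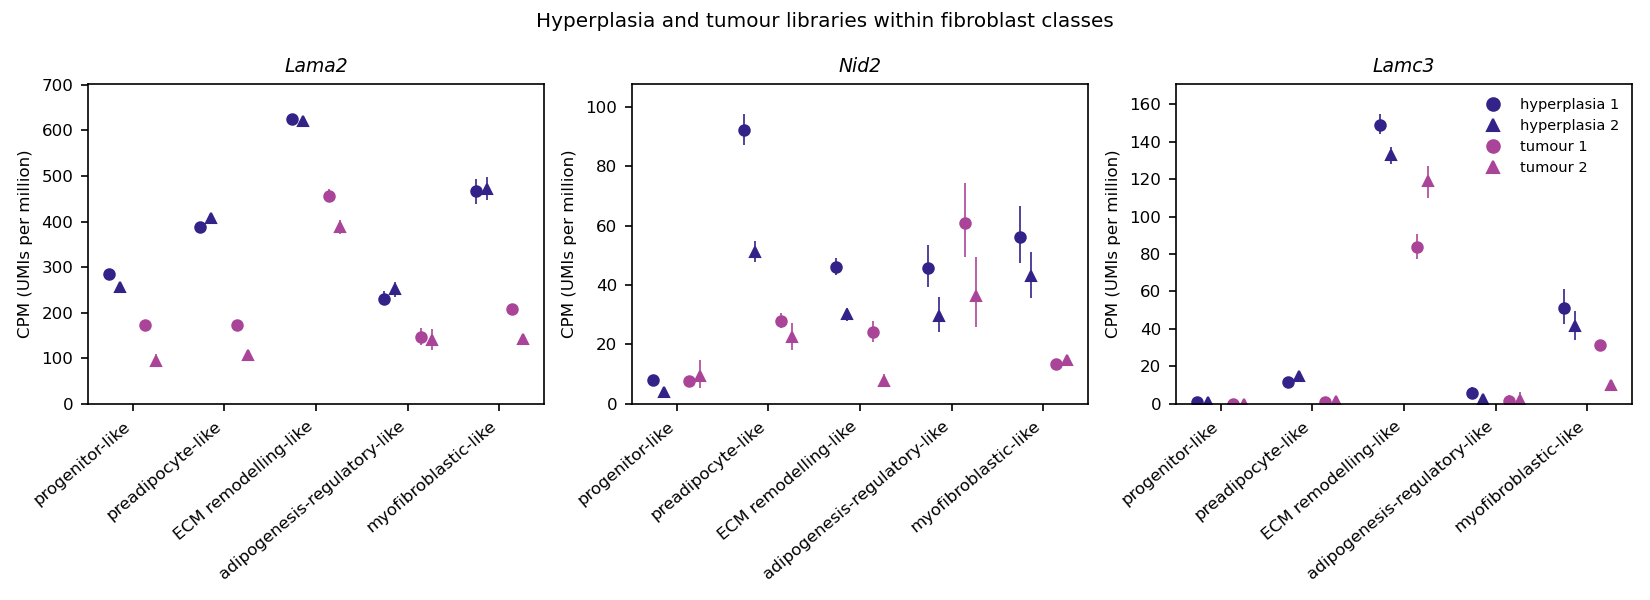
Levels of Lama2, Nid2 and Lamc3 within 5 fibroblast classes of the 2 hyperplasia and 2 tumour libraries, as CPM on axes that start at 0, with circles for mouse 1, triangles for mouse 2 and bars for exact 95% Poisson intervals. Both tumours lie below both hyperplastic glands for Lama2 in all 5 classes shown, an order not counted over all genes within classes.

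Hyperplastic glands were also set against normal glands, with puberty and adult joined as in the study. Lamc3 rose and Hspg2 fell. Of the 16302 genes, 2280 (14.0%) passed. Lamc3 was at 2.79 and 16.1 CPM in puberty and adult and 66.9 and 53.6 in hyperplasia (2.97, SE 0.66, adjusted p = 0.0371, limma-voom). Hspg2 was at 423 and 415 against 289 and 288 CPM (-0.57, SE 0.14, adjusted p = 0.0467). Neither was called with edgeR (adjusted p = 0.052 and 0.05). Lamc3 was not called without puberty (1.90, adjusted p = 0.0807), hyperplasia 1 (0.205) or hyperplasia 2 (0.12), and Hspg2 was not called without puberty, adult or either hyperplasia library (0.168 to 0.248). The 4 endothelial markers summed to 23.1 and 27.1 CPM in normal glands and 5.75 and 12.8 in hyperplasia, most of it Kdr. Within that list Kdr, Cdh5 and Emcn were lower in both hyperplasia libraries, and Vwf was higher (0.103 and 0.135 against 1.13 and 0.538). No marker was at 0, and the part of this list in the result was not tested. Strain, age, genotype and sort all differ between these groups and cannot be told apart from the lesion.

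The ECM remodelling-like class, which carries Lamc3, was 1.63% of fibroblasts in puberty, 11.4% in the adult and 46.2% and 41.6% in hyperplasia. The stage and raGFP-Wnt1 cells were clustered separately and the clusters named from the same markers, but their leading genes differed (Igfbp2, Stra6 and F5 in the stages, Pla2g7, Col25a1 and Ifitm1 in raGFP-Wnt1 mice), so values are set side by side and were not tested. In the clusters so named Lamc3 was at 42.0 CPM in puberty, 115 in the adult, and 149 and 133 in hyperplasia. Lama2 was at 255 and 269 CPM in normal glands and 450 and 423 in hyperplasia (0.70, adjusted p = 0.0685, limma-voom), and did not pass. Of the other basement membrane genes, 3 of 38 tested rose, Ntn4 (1.93), a netrin that binds laminin, Itga7 (1.39) and Smoc2 (0.67), and none fell, with a median of -0.068 beside -0.0054 over all genes.

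Pericytes, the mural cells that share a basement membrane with the endothelium, served as the contrast in the 9 wild-type libraries. In pericytes, 8 of the 10 genes were lower than in fibroblasts, Lama5 was higher, and Lamb2 did not pass the test. Over all 13437 genes tested, 6424 (47.8%) passed, with a median log2 difference of -0.086. Pericytes were chosen by Rgs5 and fibroblasts by Dcn, Lum and Col1a2, none of which is among the 10 genes.

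Of the 10 genes, Lama5 alone was higher in pericytes. From puberty to involution it was at 93.5, 49.6, 25.3, 17.1 and 18.5 CPM, and at 88.8 and 107 with placebo and 44.4 and 68.0 with MPA+E. In fibroblasts of the same libraries it was between 0.135 and 1.03 CPM, so the ranges lay far apart (6.64, SE 0.30, adjusted p = 9.37e-12, edgeR with the library as a term, n = 9). Between 4.96% and 57.1% of pericytes had a Lama5 UMI, against 0.0837% to 0.793% of fibroblasts in these libraries, and the median pericyte was shallower than the median fibroblast in each. With cells thinned to 2000 UMIs the shares were 2.68% to 25.4% and 0.0177% to 0.195%. The pericyte values rest on 6 to 143 UMIs per library.

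Lama2 was at 58.2 to 431 CPM in pericytes and 255 to 723 in fibroblasts, a log2 difference of -1.83 (SE 0.17, adjusted p = 8.81e-08, edgeR). Nid1 (-1.68, SE 0.17) and Lamb1 (-1.52, SE 0.18) were next, and Hspg2 (-1.28), Lamc1 (-1.23), Lamc3 (-1.17) and Lama4 (-1.0) followed. Nid2 differed by -0.74 (SE 0.22, adjusted p = 0.0109). Lamb2 was at 157 to 268 CPM in pericytes and 150 to 241 in fibroblasts (-0.055, SE 0.12, adjusted p = 0.741).

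**Figure D4:**
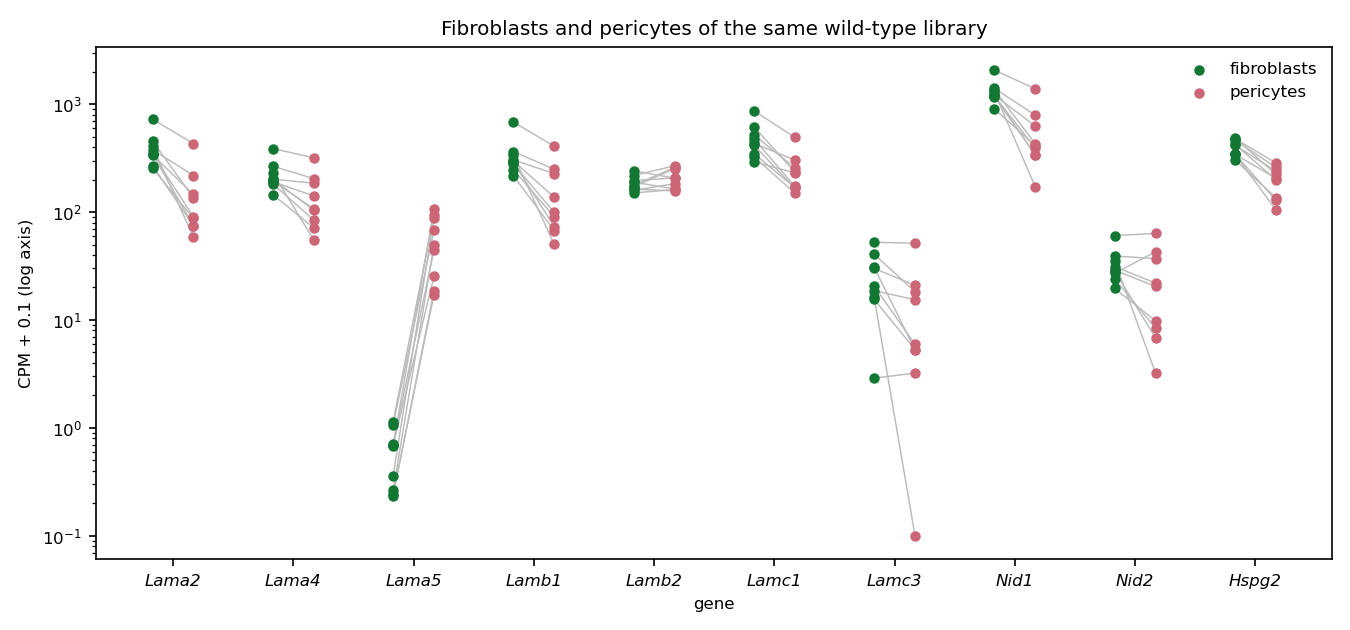
Levels of the 10 genes in fibroblasts and pericytes of the 9 wild-type libraries, as CPM + 0.1 on a log axis, with a line joining the 2 values of each library. Lama5 is higher in pericytes in 9 of 9 libraries, and Lamb2 covers about the same range in both.

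The pericyte sums carried fibroblast RNA. The 6 fibroblast markers summed to 3150 to 16800 CPM in pericytes against 21400 to 40600 CPM in fibroblasts, and none was at 0. The 4 endothelial markers summed to 6.24 to 124 CPM in pericytes and 5.32 to 45.8 in fibroblasts, where nearly all of it was Kdr. Kdr itself was at 6.24 to 49.6 CPM in pericytes and 4.55 to 45.2 in fibroblasts. Cdh5 was at 0 to 33.5 against 0.176 to 1.11 CPM. Emcn was at 0 to 57.9 against 0.0555 to 0.493 CPM, and Vwf at 0 to 3.06 against 0.0555 to 0.431. The 4 epithelial markers summed to 0 to 319 CPM in pericytes and 0.123 to 33.4 in fibroblasts, both highest in pregnancy. Some markers of these 2 lists were at 0 in pericytes. Their part in the Lama5 result was not tested. In strict pericytes, below the fibroblast limit and with no UMI of another lineage gene, Lama5 stayed at 18.8 to 131 CPM. Lama2 was at 1.09 and 9.60 CPM with placebo, 13.6 and 29.0 with MPA+E, and 38.8 to 288 in the stages, so its level in pericytes depended on how they were chosen. Over the stages, Lamb1 was at 90.4, 99.2, 249, 407 and 227 CPM in pericytes, and was highest in lactation as in fibroblasts. Lamb1 in strict pericytes was at 22.8 and 7.66 CPM with placebo, 74.5 and 47.4 with MPA+E, and 28.2 to 395 in the stages. Nid2 was not called without the library term or with at least 10 Rgs5 UMIs, and Lamc3 was not called without the library term.

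Of 33 other basement membrane genes tested, 9 were higher in pericytes and 13 lower, with a median of -0.35. Tinagl1 (7.90), a matrix glycoprotein of vessels, and the laminin receptor genes Bcam (6.92) and Itga7 (5.91) led those higher. Frem1 (-2.60), Hmcn1 (-2.33) and Efemp1 (-2.25) led those lower. By class of gene, 6 of 11 receptors were higher and 3 lower, while of 12 other components 2 were higher and 8 lower.

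MPA+E called none of the 10 genes in pericytes. Of 8882 genes tested, 27 (0.304%) passed with edgeR and 737 had an unadjusted p under 0.05, while DESeq2 called 54 genes and again none of the 10. Of the 10, 4 had an unadjusted p under 0.05, namely Lama5 (-0.80), Lamb2 (-0.57), Lama2 (0.73) and Lamc1 (0.53), with adjusted p of 0.438 to 0.488 in edgeR. Lamb1 was at 50 and 73.1 CPM with placebo and 137 and 67.3 with MPA+E.

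The difference of the hormone effect between pericytes and fibroblasts was tested by an interaction term. Lama5 was the 1 gene called, among 194 of 15202 genes (1.28%). Its hormone effect in pericytes was lower than that in fibroblasts by a log2 difference of -1.76 (SE 0.35, adjusted p = 0.00264, edgeR). It lay lower with MPA+E in pericytes (88.8 and 107 against 44.4 and 68.0 CPM) and higher in fibroblasts (0.259 and 0.582 against 0.609 and 0.965 CPM). The call was lost without placebo 1 (-1.36, adjusted p = 0.0994), without MPA+E 2 (-1.79, adjusted p = 0.131) and with doublets removed from the fibroblasts (-1.63, adjusted p = 0.189). Fibroblast markers in the pericyte sums moved with the treatment, at 3150 and 6240 CPM with placebo and 9320 and 7090 with MPA+E. Endothelial markers summed to 26.5 and 38.8 against 71.4 and 17.5 CPM, and epithelial markers to 0 and 53.0 against 0 and 47.9, so these groups overlapped. In the fibroblast sums, an unnamed cluster of 322 cells led by Myh11, Acta2 and Tagln, genes of smooth muscle, held 17 of 18 and 31 of 42 Lama5 UMIs with placebo and 39 of 53 and 74 of 88 with MPA+E. It had 17 and 79 cells with placebo and 18 and 208 with MPA+E. Within it Lama5 was at 57.3 and 47.9 against 77.3 and 31.9 CPM, so the groups overlapped. The other fibroblasts had 1 and 11 against 14 and 14 UMIs (0.0145 and 0.154 against 0.162 and 0.158 CPM). The difference without that cluster was not tested. In strict pericytes, which lie below the fibroblast limit and hold no UMI of another lineage gene, 6 of the 10 genes were called among 366 of 15006 genes (2.44%). This alternative was chosen after seeing the data. Lama5 was at -1.75 there (adjusted p = 0.00381, edgeR), as large as before, while Lamb1 moved from 0.89 to 2.24 (adjusted p = 5.53e-07, edgeR), Lama2 from 0.58 to 1.84 (0.0166) and Lamc3 from -0.91 to -2.74 (0.00762). Few UMIs stand behind Lamb1, Lama2 and Lamc3 there. Lamb1 had 19 and 7 UMIs with placebo against 72 and 49 with MPA+E. Lama2 had 8 and 1 against 28 and 14, and Lamc3 12 and 4 against 3 and 3. Strict pericytes still held RNA of the fibroblast markers. Col1a2 was at 217 and 124 CPM in them with placebo and 441 and 373 with MPA+E. Dcn (55.2 and 41.6 against 52.8 and 151) and Lum (13.2 and 10.9 against 10.4 and 12.6) overlapped. The part of this RNA in the calls in strict pericytes was not tested. With all pericytes, 2 of the 38 other basement membrane genes were called, Frem1 and Col15a1 (1.09).

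**Figure D5:**
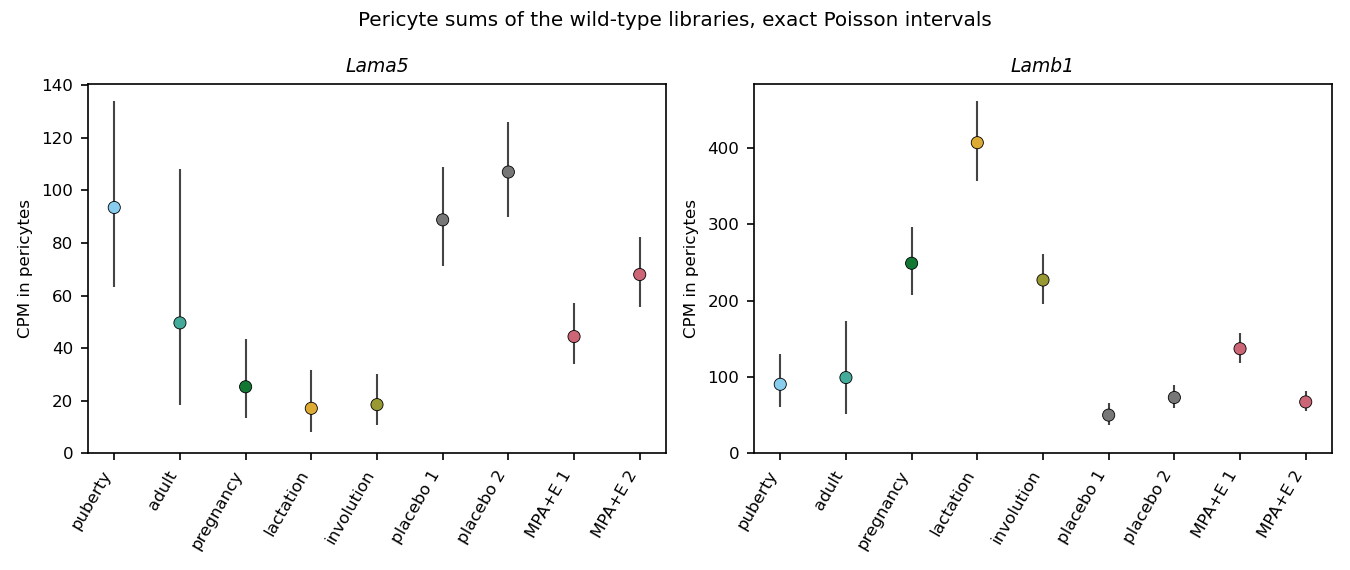
Levels of Lama5 and Lamb1 in the pericytes of the 9 wild-type libraries, as CPM on axes that start at 0, with 1 point per library and bars for exact 95% Poisson intervals. Lama5 is at 93.5 CPM in puberty and 17.1 in lactation, and Lamb1 at 90.4 in puberty and 407 in lactation.

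Across the 13 libraries the genes were also compared with all 9649 genes of sufficient level by their pattern in fibroblasts. The points share stage, strain and depth, so Pearson's r is given as a description. The gene most like Lama4 was Lamb1 (0.94), and the reverse held as well. Lama2 was most like E130102H24Rik (0.96), Lamc1 like Ggps1 (0.95), with Pdgfra at 0.91, and Nid1 like AW549877 (0.95). Lamc3 was most like Plekha6 and Egflam (both 0.93), the second of which encodes a matrix protein that binds dystroglycan. Lamb2 was most like Mfsd7a (0.94), Nid2 like Satb1 (0.89) and Hspg2 like March8 (0.92). The best match of Lama5 was Myh11, a smooth muscle myosin gene, at 0.82.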

How the data were processed

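Droplet single-cell RNA sequencing (10x 3′ v3 per the labels) of 13 libraries was analysed. The deposited matrices give unnormalized UMI counts for genes by barcodes, which the authors made with Cell Ranger 6.1.2 on mm10 per the submitters' processing notes, filtered for cells. The limits on barcodes were 500 to 7500 genes and a mitochondrial share of at most 10%, and fibroblasts and pericytes were taken by the marker rules given above. Cell labels of the study were not used here. Marker lists are given where they bear on a result, and some values are not reported here. Doublets were scored with Scrublet in scanpy 1.11.5 and kept, except in an alternative that removed 0.8% per 1000 barcodes. Strict pericytes were an alternative choice of cells.

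Integration in Seurat 5.3.0 was run apart for the 5 stage, 4 hormone and 4 raGFP-Wnt1 libraries (1000 features, resolution 0.3), leaving out the 10 genes and the basement membrane list. Classes with at least 20 cells in a library were described, and classes with at least 50 cells in every library were fitted. Tests used sums of UMIs per library, not cells. The hormone and pericyte comparisons used edgeR 4.0.16 (quasi-likelihood test, TMM, filterByExpr), and the tumour and hyperplasia comparisons voom from limma 3.58.1, fitted once to 6 libraries, after the study's methods, with Benjamini-Hochberg adjustment over all genes tested and a threshold of 0.05. DESeq2 1.42.0 was an alternative. Scripts were tested on simulated data.

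The members and lists were chosen with earlier results of these data known. All 10 genes are named, with at most 3 called genes of the list per direction and comparison, those of largest fold change, and the 3 genes most alike for each member. The labels pair hyperplasia and tumour by mouse. Deviations from their group means correlated at 0.0954 over 16001 genes. The labels list puberty at 4 weeks. Promoters are from RefSeq on GRCm38.p6 and positions from GENCODE M21.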

Additional observations from a re-analysis of the deposited data

Results flagged for a closer look

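The hormone effect on Lama5, the alpha 5 laminin chain, differed between pericytes and fibroblasts by a log2 difference of -1.76 in the test of the difference itself (adjusted p = 0.00264 in edgeR, n = 2 libraries per group). The call was lost without placebo 1 (-1.36, adjusted p = 0.0994), without MPA+E 2 (-1.79, 0.131) and with doublets removed from the fibroblasts (-1.63, 0.189), and it held in strict pericytes (-1.75, 0.00381), by edgeR. The level was lower with MPA+E in 2 of 2 pericyte sums and higher in 2 of 2 fibroblast sums than in both placebo libraries. The fibroblast values rest on 18 to 88 UMIs per library, of which 17 to 74 lay in an unnamed cluster of 322 cells led by Myh11, Acta2 and Tagln. That cluster had 17 and 79 cells with placebo and 18 and 208 with MPA+E, and Lama5 within it overlapped between the groups.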

How the results depend on the processing

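Stages had 1 library each and were not tested, and 2 libraries a group limit the other tests. In all, 8 of 10 genes still differed by at least 2 times between stages under every alternative run, though Lama5 only at 2.29 (interval 0.811 to 6.97) with doublets removed. For levels under 1 CPM, as for Lama5 in fibroblasts, depth limits the values. With cells thinned to 2000 UMIs, 1 of the 10 genes and not 7 had a UMI in over 50% of cells in the median library.

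For the hormone effect in fibroblasts, 678 genes were called, with 1358 in DESeq2 and 22 to 900 when a library was left out, and 0 to 1 of the 10 genes. The replicate block of placebo and MPA+E numbers called 2451 genes and 2 members, Lamc1 (0.36, adjusted p = 0.046) besides Lamc3. Same-numbered libraries correlated at 0.396 over 15642 genes, but the labels give no shared batch for the numbers. For tumours against hyperplasia, leaving out a library gave 242 to 7120 genes and 0 to 6 members. The replicate block by mouse, fitted to the 4 hyperplasia and tumour libraries, added Lamc3 and changed no other call among the 10 genes. The same 4 libraries without the block, a fit chosen after seeing the data, called 3187 genes, Lamc3 (adjusted p = 0.0178 in limma-voom) among them, and lost Nid2 (0.0539). For hyperplasia against normal, DESeq2 called 4017 genes and 4 members, edgeR 0 members, and no filter, a mitochondrial limit of 5%, doublets removed and all barcodes within the quality limits 1 member each. Leaving out a library gave 1 to 4810 genes and 0 to 3 members. In pericytes, genes called for MPA+E were 54 in DESeq2, 15 with RLE scaling, 0 with no filter, 104 with the replicate block, 71 in strict pericytes and 0 to 218 when a library was left out. For the difference between the cell types, strict pericytes gave 366 genes and 6 members, doublets removed 0 members, and leaving out a library 56 to 316 genes and 0 to 4 members. Strict pericytes, these doublets and these libraries left out were chosen after seeing the data. The 6 members in strict pericytes were Lamb1 (2.24, adjusted p = 5.53e-07 in edgeR), Lama2 (1.84), Lamc3 (-2.74), Nid1 (0.96), Lama4 (0.88) and Lama5 (-1.75). The causes were not tested.

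Directions turned for differences near 0, with ranges over the libraries left out. For the hormone effect, Lamb2 was -0.0050 in DESeq2 and with RLE scaling, -0.0088 with doublets removed, -0.0064 over all barcodes and -0.083 to 0.078 with a library left out, Lama2 -0.059 to 0.25, Nid1 -0.036 to 0.086 and Nid2 -0.49 to 0.087, and over all barcodes Lama5 was -0.11. For tumours, Lama4 was -0.22 to 0.14, and 0.037 with a fibroblast limit of 1% of UMIs. For hyperplasia against normal, Lamb1 was -0.039 to 0.094, Nid1 -0.42 to 0.035 and Nid2 -0.16 to 0.70. Between pericytes and fibroblasts Lamb2 was 0.00062 in DESeq2. For MPA+E in pericytes, Lama4 was -0.31 to 0.67, Lamc3 -0.86 to 1.04 and Nid2 -0.40 to 1.13. For the difference between cell types, Lamc1 was -0.26 in strict pericytes and -0.12 to 0.41 with a library left out, Lama4 -0.0024 to 1.05, Hspg2 -0.10 to 0.38 and Nid2 -0.29 to 1.34. No value whose sign turned passed the test.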
